A study of Homo sapiens with 4 samples.

Results

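Expression of 10 genes of the contractile apparatus and of actin bundling was followed through the 4 RNA-seq libraries of a study of thyroid cancer cells at raised temperature. The genes were MYL9, TAGLN, TAGLN2, LCP1, PLS3, ACTA2, CNN1, TPM1, TPM2 and CSRP1, and they were taken by name from a table of 58884 gene IDs. They were chosen because earlier work on these same values had shown that the lines use different actin regulators, with MYL9 in TPC-1 and LCP1 and TAGLN high in B-CPAP. The levels in the lines are therefore given as a description, with no test. All 10 genes were matched, and all 10 reached the mean of 1 TPM (expression scaled by gene length and library total) that was asked for in fits over all genes.

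TPC-1 and B-CPAP are established human lines of papillary thyroid carcinoma, and each was sequenced once after 37 °C and once after 40 °C. The labels name no other treatment and no genetic change made to the lines. They state the length of the exposure as 15 min, 20 min and 24 h in different fields, so it is not settled here. All flasks were submerged, those at 37 °C included. Each group is 1 library of 1 line, so differences between libraries carry no replicate error, and the intervals below cover counting error only. The libraries held an estimated 20704722 to 24466576 reads. Of the thyroid markers, PAX8 was present in all libraries (98.9 to 284 TPM), whereas SLC5A5 was listed at 0 in all 4 and NKX2-1 was listed at 0 in both TPC-1 libraries (8.60 and 7.90 TPM in B-CPAP).

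Contraction in non-muscle cells is driven by myosin II, whose regulatory light chain (MYL9 and its relatives) is phosphorylated by MYLK and by the kinases ROCK1 and ROCK2 and is dephosphorylated by myosin phosphatase. Actin filaments are coated by tropomyosins and bound by calponins and transgelins, and are packed into parallel bundles by plastins and fascin. Many of these genes are known targets of the transcription factor SRF with its cofactors MRTFA and MRTFB, and MYL9, TAGLN, ACTA2 and CNN1 are widely used markers of smooth muscle and myofibroblasts.

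The plastins LCP1 and PLS3 and the tropomyosins TPM1 and TPM2 changed places between the lines. For each gene the 250 bases before an annotated start site are shown, so that the pairs of paralogs can be compared at these sites. PLS3 and TPM2 had 2 windows each, and that nearest the gene's outer end is shown. The LCP1 and TPM1 windows lie inside the gene spans given below, so other start sites of these genes may differ. The sequences are from RefSeq on GRCh38.p14, 5′ to 3′ on the gene's strand, with CG dinucleotides in capitals.
LCP1 (chr13:46182178-46182427, minus strand): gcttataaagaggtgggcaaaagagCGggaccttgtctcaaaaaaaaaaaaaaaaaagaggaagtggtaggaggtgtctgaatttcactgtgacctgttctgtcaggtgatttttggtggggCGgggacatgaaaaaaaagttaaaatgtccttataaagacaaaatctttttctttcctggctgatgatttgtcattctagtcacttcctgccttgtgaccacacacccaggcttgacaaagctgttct
PLS3 (chrX:115560924-115561173, plus strand): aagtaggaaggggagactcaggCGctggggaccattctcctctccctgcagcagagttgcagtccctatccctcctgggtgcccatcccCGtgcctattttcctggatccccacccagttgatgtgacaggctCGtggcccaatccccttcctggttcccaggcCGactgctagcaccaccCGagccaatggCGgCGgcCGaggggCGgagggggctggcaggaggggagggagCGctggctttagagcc
TPM1 (chr15:63048239-63048488, plus strand): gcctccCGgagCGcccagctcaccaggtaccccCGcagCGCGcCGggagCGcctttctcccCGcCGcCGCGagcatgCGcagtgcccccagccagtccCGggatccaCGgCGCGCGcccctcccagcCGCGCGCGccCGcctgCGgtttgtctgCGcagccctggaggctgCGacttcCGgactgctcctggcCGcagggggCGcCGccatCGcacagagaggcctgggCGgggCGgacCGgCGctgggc
TPM2 (chr9:35690057-35690306, minus strand): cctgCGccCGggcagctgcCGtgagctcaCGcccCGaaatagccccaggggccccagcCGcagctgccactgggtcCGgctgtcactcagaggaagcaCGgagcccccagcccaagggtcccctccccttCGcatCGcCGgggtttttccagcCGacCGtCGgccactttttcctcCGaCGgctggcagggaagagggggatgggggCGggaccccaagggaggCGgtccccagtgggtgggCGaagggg

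The LCP1 window held 2 CG dinucleotides and 41.2% G and C, against 10 and 65.2% for PLS3, 34 and 78.4% for TPM1, and 19 and 71.6% for TPM2. Over the 35116 RefSeq windows of this length the median was 11; 22.9% held no more than LCP1, 49.7% no more than PLS3, 94.2% no more than TPM1 and 67.6% no more than TPM2. LCP1 was the single one of the 8 genes with an entry in this table whose window held TATAAA on either strand, a word found in 10.7% of all windows. GGGCGG, searched on both strands, was in all 8 windows and in 42.6% of all windows. The CArG box, the sequence bound by SRF, was searched in its strict form only. It was in 0 of the 8 and in 1.16% of all windows. MYL9 and TAGLN had no entry. For genes with several windows, only that nearest the gene's outer 5′ end was searched. Looser forms of the box and other stretches of the genes were not searched, so the genes are not said to lack it. These matches describe the letters in the windows. Their part in the levels was not tested.

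In levels on the log2(TPM + 1) scale, 7 of the 10 genes stood 4-fold or more apart between the lines at both temperatures, 4 higher in B-CPAP and 3 higher in TPC-1, where 9.66% of the 14912 genes tested did so. The genes were picked on this contrast, so nothing is read from that count. For scale, 27.9% of tested genes stood 2-fold or more apart at both temperatures, and limma called 62.7% between the lines. The other 3, TAGLN2, ACTA2 and CSRP1, stood less than 2-fold apart at both temperatures.

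**Figure D1:**
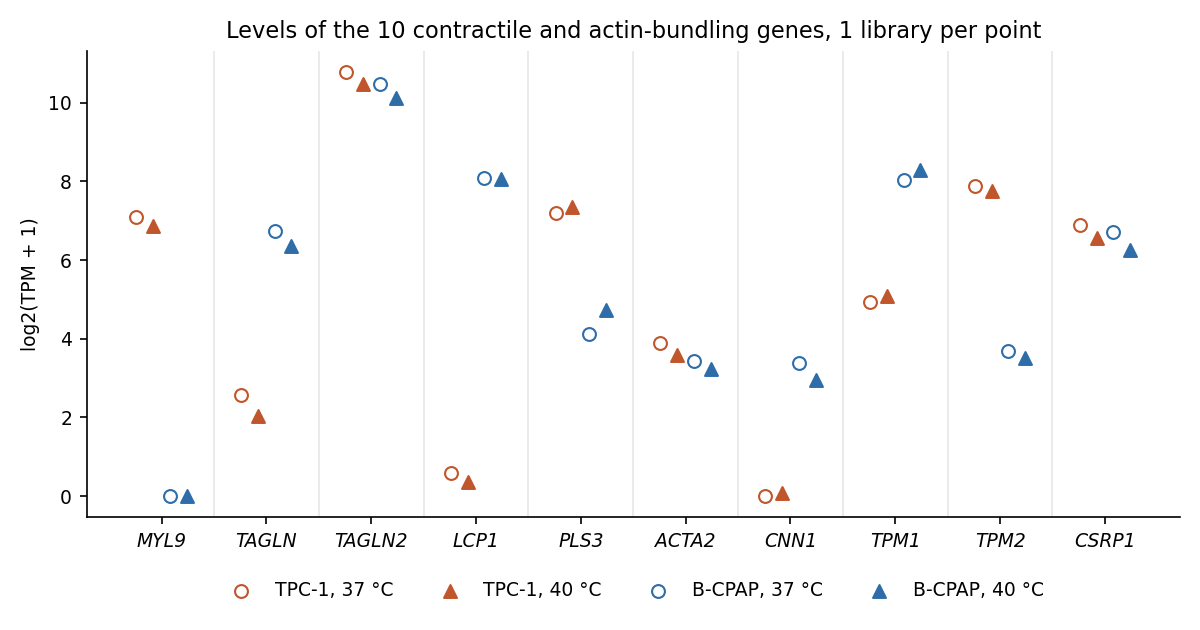
Levels of the 10 genes on the log2(TPM + 1) scale, with 1 point per library (open circles, 37 °C; triangles, 40 °C; orange, TPC-1; blue, B-CPAP). The points of a line lie close together, and those of the lines lie far apart for MYL9, TAGLN, LCP1, PLS3, CNN1, TPM1 and TPM2.

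MYL9 (ENSG00000101335, chromosome 20, 36541484 to 36551447) encodes a regulatory light chain of smooth muscle and non-muscle myosin II. In TPC-1 it stood at 135 TPM at 37 °C and at 116 TPM at 40 °C, and it was listed at 0 in both B-CPAP libraries. With 0 reads in B-CPAP, the TPC-1 level was set against a limit of 3 reads per library, which corresponds to 0.143 and 0.152 TPM. It was 951-fold above that limit at 37 °C and 762-fold above it at 40 °C. The 95% counting intervals of the ratio of TPC-1 to B-CPAP reached down to 773-fold and 619-fold. The closely related light chains MYL12A and MYL12B were present in every library. For MYL12A, TPC-1 held 321 and 359 TPM and B-CPAP 197 and 215 TPM (37 °C first, here and below). For MYL12B, TPC-1 held 253 and 345 TPM and B-CPAP 291 and 374 TPM. Reads of these near-identical neighbours may be divided uncertainly between them. MYL9 thus made up 19.1% and 14.1% of the summed TPM of the 3 light chains in TPC-1, but 0% of it for B-CPAP. The sum was 709 and 821 TPM for TPC-1, against 487 and 589 TPM in B-CPAP.

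LCP1 (ENSG00000136167, chromosome 13, 46125920 to 46211871), or L-plastin, bundles actin filaments and is normally made in leukocytes. It stood at 269 and 265 TPM in B-CPAP and at 0.50 and 0.279 TPM in TPC-1, the latter from about 15 and 8 reads. The ratio of B-CPAP to TPC-1 was 538 at 37 °C (95% interval 333 to 981) and 950 at 40 °C (491 to 2244). The pan-leukocyte gene PTPRC was listed at 0 in all 4 libraries, as were CD3E and MS4A1. The 14 leukocyte markers summed to 211 to 213 TPM in TPC-1, against 42.1 to 42.9 TPM in B-CPAP, most of it LAPTM5 (203 and 205 TPM, against 34.5 and 35.2 TPM), and 3 or 4 of the 14 reached 1 TPM in each library. LAPTM5 was thus higher in the line with little LCP1. CD4 was higher in B-CPAP (1.68 and 1.25 TPM, against 0.073 and 0.152 TPM), while CORO1A (3.13 to 3.87 TPM) and CSF1R (1.17 to 2.50 TPM) were present in all libraries. The part of other cells in the LCP1 level was not tested.

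PLS3 (ENSG00000102024, chromosome X, 115561174 to 115650861), or T-plastin, is the plastin of most solid tissues. TPC-1 held 145 and 162 TPM of it and B-CPAP 16.4 and 25.6 TPM, so it was 8.81-fold (interval 8.03 to 9.70) and 6.32-fold (5.84 to 6.85) higher in TPC-1. PLS1, the plastin of intestinal brush borders, stood at 11.5 TPM in both TPC-1 libraries and at 1.12 and 2.30 TPM in B-CPAP. PLS3 accordingly held 92.3% and 93.2% of plastin TPM in TPC-1, and LCP1 held 93.9% and 90.5% in B-CPAP. Summed plastin was 157 and 174 TPM (TPC-1), against 286 and 293 TPM (B-CPAP).

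**Figure D2:**
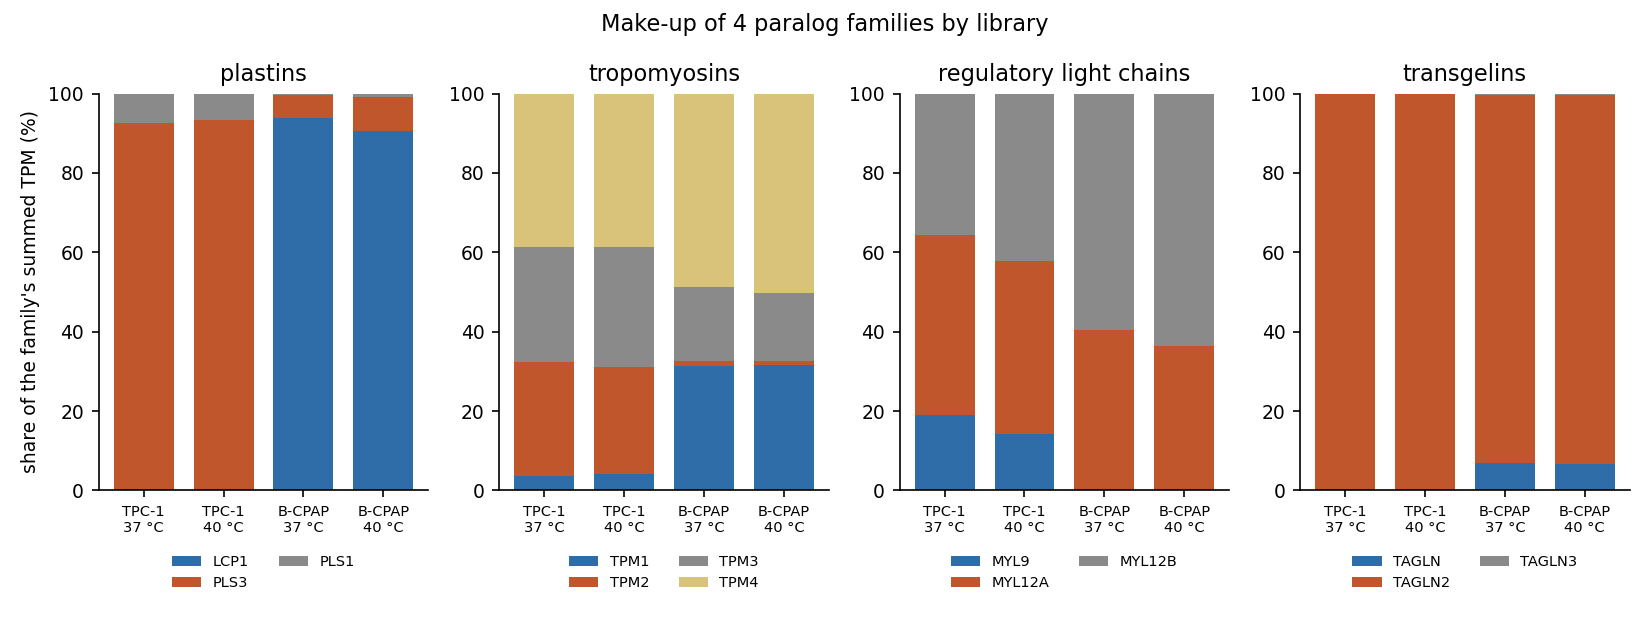
Share of each paralog in the summed TPM of its family (vertical axis, percent) in the 4 libraries (horizontal axis), for plastins, tropomyosins, regulatory light chains and transgelins. PLS3 fills over 92% of the plastin bars of TPC-1 and LCP1 over 90% of those of B-CPAP, while TAGLN2 dominates the transgelins in every library.

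Tropomyosins stiffen actin filaments and set which myosins and severing proteins can bind. TPM2 (ENSG00000198467, chromosome 9, 35681992 to 35690121) was at 235 and 214 TPM in TPC-1, against 12.0 and 10.4 TPM in B-CPAP, and so 19.6-fold (interval 17.4 to 22.1) and 20.6-fold (18.1 to 23.6) higher in TPC-1. TPM1 (ENSG00000140416, chromosome 15, 63042632 to 63071915) had the opposite order, with 29.9 and 32.9 TPM in TPC-1, against 264 and 314 TPM in B-CPAP, ratios of 8.84 (8.47 to 9.22) and 9.53 (9.14 to 9.94). The levels of the lines did not overlap for either gene. TPM3 stood at 239 TPM in both TPC-1 libraries and at 157 and 169 TPM in B-CPAP. For TPM4, TPC-1 held 316 and 306 TPM and B-CPAP 412 and 498 TPM. TPM1 thus held 3.64% and 4.16% of tropomyosin TPM in TPC-1 and 31.2% and 31.7% in B-CPAP, and TPM2 held 28.7% and 27%, against 1.42% and 1.05%. Summed over the 4 genes, tropomyosin was 820.1 and 792 TPM (TPC-1), against 846 and 992 TPM (B-CPAP), so the sums lay closer together than either gene alone. The values are for whole genes, and the muscle and non-muscle isoforms of a gene are not told apart.

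The transgelins bind and gel actin filaments. TAGLN (ENSG00000149591, chromosome 11, 117199321 to 117204782), known as SM22 alpha, was at 4.90 and 3.14 TPM in TPC-1, against 106 and 80.8 TPM in B-CPAP, ratios of 21.7 (interval 18.0 to 26.3) and 25.7 (20.3 to 33.1). It overlaps PCSK7 on the other strand, which was listed at 3.57 to 7.40 TPM, and the libraries do not mark strand. TAGLN2 (ENSG00000158710, chromosome 1, 159918107 to 159925732) was the most abundant of the 10 genes in every library, at 1763 and 1417 TPM in TPC-1, against 1415 and 1119.75 TPM in B-CPAP. TPC-1 exceeded B-CPAP 1.25-fold (1.22 to 1.27) at 37 °C and 1.27-fold (1.24 to 1.29) at 40 °C, much like the step between temperatures within a line (ratios given below). Where TAGLN was high it still made up only 6.95% and 6.70% of transgelin TPM.

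CNN1 (ENSG00000130176, chromosome 19, 11538717 to 11550323), the calponin of smooth muscle, stood at 9.45 and 6.80 TPM in B-CPAP. It was listed at 0 in TPC-1 at 37 °C, where B-CPAP was 55.0-fold above a limit of 3 reads and the interval reached down to 44.4-fold. At 40 °C it was listed at 0.061 TPM in TPC-1, about 1 read (ratio 111, interval 20.0 to 4501). The broadly expressed calponins were far higher, CNN2 at 261 to 481 TPM and CNN3 at 216 to 329 TPM, and CNN1 made up at most 1.27% of the calponins. ACTA2 (ENSG00000107796, chromosome 10, 88935074 to 88991339), smooth muscle actin, was low in both lines, at 13.9 and 10.9 TPM in TPC-1, against 9.91 and 8.45 TPM in B-CPAP, every TPC-1 value above every B-CPAP value with less than 2-fold between them (ratio of B-CPAP over TPC-1, 0.710, 0.590 to 0.855, and 0.773, 0.626 to 0.955). It overlaps FAS and STAMBPL1 on the other strand, at 3.68 to 9.40 and 1.83 to 5.79 TPM, so reads of these genes may be mixed. ACTA2 was at most 0.076% of actin TPM, nearly all of which was the cytoplasmic pair ACTB (8416 to 12964 TPM) and ACTG1 (7477 to 13845 TPM). CSRP1 (ENSG00000159176, chromosome 1, 201483530 to 201509456), a LIM protein of actin filaments and a known SRF target, was at 118 and 93.7 TPM in TPC-1, against 104 and 75.4 TPM in B-CPAP, and the levels of the lines overlapped.

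The list of 8 smooth muscle markers includes CNN1, itself among the 10 genes. Of the markers outside the 10, SMTN alone passed 1 TPM in either line (46.7 and 40.1 TPM in TPC-1, against 48.7 and 34.4 TPM in B-CPAP). CNN1 did so in B-CPAP only. MYH11 was at most 0.457 TPM, DES at most 0.671 TPM and MYOCD, the muscle cofactor of SRF, at most 0.242 TPM. With CNN1 included, the 8 smooth muscle markers summed to 41.3 to 47.9 TPM in TPC-1, against 42.0 to 59.0 TPM in B-CPAP. The 10 fibroblast markers summed to 9.42 and 9.91 TPM in TPC-1, against 417 and 380.2 TPM in B-CPAP, led there by THY1 at 362 and 301 TPM. The collagen genes COL1A1, COL1A2 and COL3A1 each stood between 8.15 and 10.7 TPM in B-CPAP. In each B-CPAP library 8 of the 10 fibroblast markers reached 1 TPM, against 2 in each TPC-1 library. PDGFRB went the other way (6.19 and 6.72 TPM in TPC-1, against 4.15 and 4.65 TPM in B-CPAP). COL1A1 was also present in TPC-1 (2.95 and 2.82 TPM), and PDGFRA was at most 0.045 TPM in any library. The line with more TAGLN and CNN1 was thus also the line with the higher fibroblast marker sum, most of it THY1, while MYL9 was in the other. The part of other cell types in these levels was not tested. In such bulk libraries fewer cells with a gene and less RNA of it per cell cannot be told apart.

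The genes nearest to 3 of the 10 in level over the 4 libraries, by Euclidean distance of log2(TPM + 1) among 11808 protein-coding genes, were as follows. PXDN, a peroxidase of basement membranes, lay nearest to MYL9 (129.6 and 130.03 TPM in TPC-1, under 0.1 TPM in B-CPAP; distance 0.214), followed by EHBP1L1 and WNT7B (0.597 and 0.687). ACP5, THY1 and PAGE5 lay nearest to LCP1 (0.479, 0.535 and 0.795), and GPX3, CCNE1 and HTATIP2 to TAGLN (0.688, 0.771 and 0.856). With 4 libraries, such likeness mostly restates the difference between the lines.

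At 40 °C most of the 10 genes stood lower than at 37 °C, by less than 2-fold. In TPC-1 7 of the 10 were lower and 3 higher, where 42.5% of all tested genes were lower and 54.3% higher. In B-CPAP 7 were lower, 2 higher and MYL9 at 0 in both libraries, where 40.1% of all tested genes were lower and 58.2% higher. Counting intervals excluded 1 for 6 lower and 2 higher genes in TPC-1, and for 4 lower and 2 higher genes in B-CPAP. TAGLN, TAGLN2, LCP1, ACTA2, TPM2 and CSRP1 were lower in both lines, 6 of 10 against 27.1% of all tested genes, and PLS3 and TPM1 were higher in both, 2 of 10 against 41.6%. Under other settings LCP1 and TPM2 in B-CPAP and PLS3 in TPC-1 changed sign, with values given in the closing section. The median log2 difference of the 10 genes was -0.23 (TPC-1) and -0.20 (B-CPAP), against 0.03 and 0.09 for all tested genes. None of the 10 was 2-fold apart in either line, as were 2.25% (higher) and 1.23% (lower) of tested genes in TPC-1 and 2.78% and 1.13% in B-CPAP.

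TAGLN2 had nearly the same TPM ratio of 40 °C to 37 °C in both lines, 0.804 (interval 0.789 to 0.818) for TPC-1 and 0.791 (0.777 to 0.806) for B-CPAP. CSRP1 had ratios of 0.793 (0.765 to 0.821) and 0.724 (0.700 to 0.75), and TAGLN of 0.641 (0.470 to 0.868) and 0.761 (0.721 to 0.804). For these genes the intervals excluded 1 in both lines. MYL9 had a ratio of 0.855 (0.804 to 0.909) in TPC-1, the line that expressed it, and CNN1 of 0.720 (0.573 to 0.894) in B-CPAP. LCP1 had a ratio of 0.986 (0.958 to 1.01) in B-CPAP and of 0.558 (0.205 to 1.40) in TPC-1, where it rested on about 15 and 8 reads, and both intervals included 1.

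ACTA2 had ratios of 0.784 (0.646 to 0.951) in TPC-1 and 0.853 (0.696 to 1.05) in B-CPAP. TPM2 had ratios of 0.910 (0.872 to 0.950) and 0.865 (0.725 to 1.03), the B-CPAP interval again including 1. On the higher side TPM1 had ratios of 1.10 (1.04 to 1.17) and 1.19 (1.17 to 1.21). PLS3 had ratios of 1.12 (1.07 to 1.17) in TPC-1 and 1.56 (1.39 to 1.75) in B-CPAP. Counting error covered the difference between the lines' ratios for TAGLN2 (ratio of ratios, B-CPAP over TPC-1, 0.985, interval 0.959 to 1.01), TAGLN, ACTA2 and TPM2. It did not cover it for PLS3 (1.39, 1.23 to 1.57), CSRP1 (0.914, 0.870 to 0.960) or TPM1 (1.08, 1.02 to 1.14). With 1 library a group this difference has no test.

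**Figure D3:**
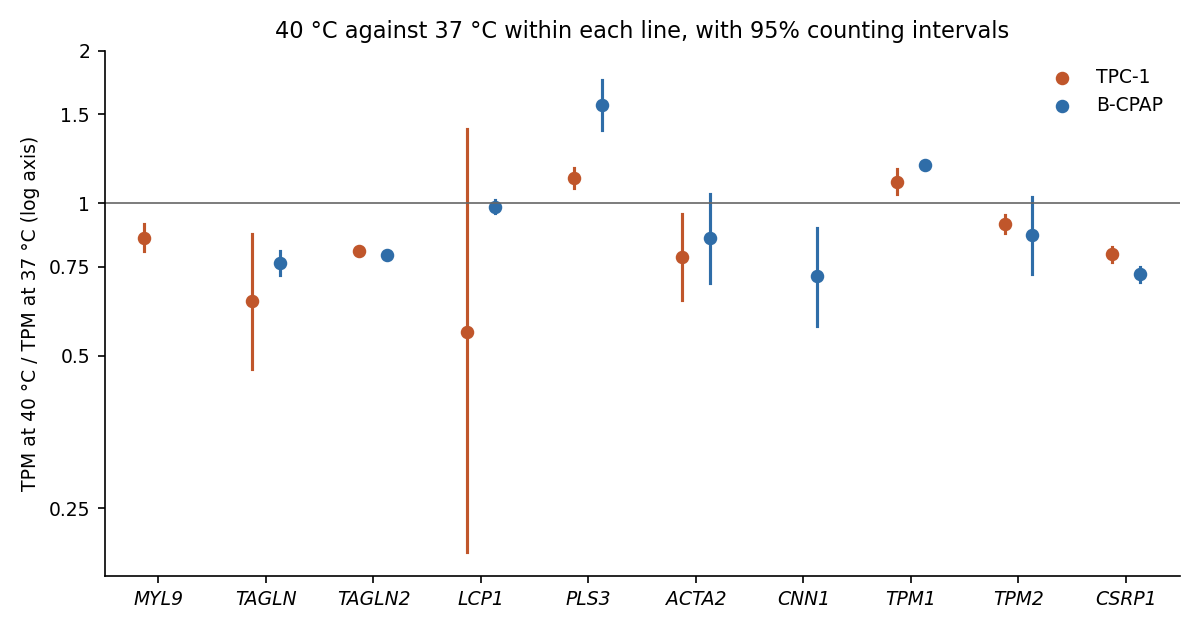
TPM at 40 °C divided by TPM at 37 °C (vertical log axis) for the 10 genes in TPC-1 (orange) and B-CPAP (blue), with 95% counting intervals as bars. TAGLN, TAGLN2 and CSRP1 lie below 1 and PLS3 and TPM1 above 1 in both lines; MYL9 in B-CPAP and CNN1 in TPC-1 are not drawn because a library was listed at 0.

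Over both lines limma called 0 of the 10 genes and 0 of 14912 in all (0% called) for 40 °C against 37 °C, with the line as a block and Benjamini-Hochberg adjustment at 0.05. An unadjusted p under 0.05 was found for 4 of the 10 and for 19.5% of all genes. All 10 are protein-coding. In the fit of such genes alone it was found for 3620 of 11824 and for the same 4 of the 10. By limma these 4 were TAGLN2 (log2 difference -0.33, SE 0.05, adjusted p = 0.218), CSRP1 (-0.40, SE 0.09, adjusted p = 0.218), TAGLN (-0.45, SE 0.12, adjusted p = 0.218) and PLS3 (0.39, SE 0.13, adjusted p = 0.239). Each had the same direction in 2 of 2 lines. A low p in this fit favours that, because its spread is how far the lines differ, so the shared direction adds no separate support. With the fit limited to protein-coding genes, an alternative chosen after seeing the data, these 4 were called by limma (adjusted p from 0.00723 for TAGLN2 to 0.0441 for TAGLN), where 11.4% of genes were called. Under a filter at a mean of 5 TPM the calls by limma were TAGLN2 and CSRP1 (adjusted p = 0.0193 and 0.0258), where 8.57% were. Adjusted for GC content limma called 0 of the 10, with log2 differences of -0.36 for CSRP1, -0.30 for TAGLN, -0.19 for TAGLN2 and 0.02 for PLS3. Over the alternatives that keep the line as a block, the adjusted p by limma ran from 0.00723 to 0.525 for TAGLN2, from 0.0147 to 0.518 for CSRP1, from 0.0359 to 0.943 for PLS3 and from 0.0441 to 0.525 for TAGLN.

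The 40 °C differences of all genes moved with GC content. Across 11819 protein-coding genes the Spearman correlation between GC content and the log2 difference was -0.60 (TPC-1) and -0.82 (B-CPAP), and across the 10 genes it was -0.18 and -0.43. Genes are not independent replicates, and all share the same pair of libraries. PLS3 had the lowest GC content of the 10 (40.1%) and MYL9 the highest (60.7%). The median was 55.1% for the 10 genes and 49.2% for the protein-coding genes. PLS3 lay near genes within 2 percentage points of its own GC content, at log2 differences of 0.16 (TPC-1) and 0.61 (B-CPAP) against medians of 0.19 and 0.49. TPM2 did so too, at -0.14 and -0.19 against -0.12 and -0.22.

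Of the others, 5 genes lay below the middle 50% of their GC neighbours in both lines. The share of all protein-coding genes that did so in both lines was not worked out, so nothing is read from this count. CSRP1 (53.0% GC) was at -0.33 and -0.46 against medians of -0.02 and -0.06. TAGLN2 (57.2%) was at -0.32 and -0.34 against -0.11 and -0.20, and TAGLN (57.8%) at -0.51 and -0.39 against -0.12 and -0.22. ACTA2 (52.2%) was at -0.32 and -0.21 against -0.01 and -0.02. LCP1 in B-CPAP (45.7%) was at -0.02 against a median of 0.26. TPM1 (49.5%) was at 0.14 and 0.25 against 0.01 and 0.09, above the middle 50% in TPC-1 and just inside it in B-CPAP. Against the middle 50% of their GC neighbours, 5 of the 10 lay below, 3 inside and 2 (CNN1 and TPM1) above for TPC-1. For B-CPAP 6 lay below, 3 inside and 1 above, the last being MYL9 with 0 reads. The part of GC content in these differences was not tested beyond this.

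**Figure D4:**
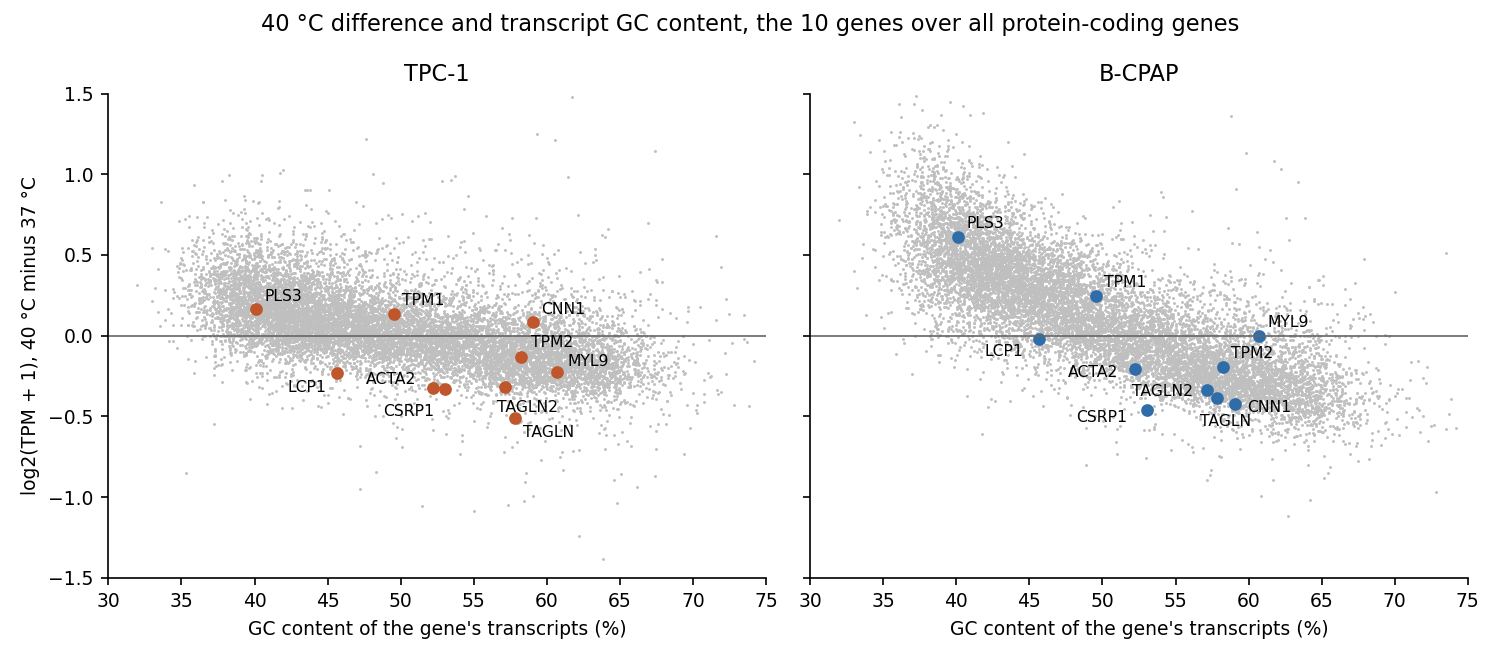
Difference of log2(TPM + 1) between 40 °C and 37 °C (vertical axis) against the GC content of a gene's transcripts (horizontal axis, percent) in TPC-1 and B-CPAP, with all 11819 tested protein-coding genes in grey and the 10 genes in colour. The grey cloud slopes down, more steeply in B-CPAP; PLS3 lies within it in both lines and CSRP1 below its middle in both, and 3 and 8 grey points fall outside the drawn range.

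The wider actin machinery, 88 other genes in 7 lists of which 70 were tested, held few large differences at 40 °C. limma called 0 of the 70 (0% of all genes), with an unadjusted p under 0.05 for 31 of the 70 and for 19.5% of all genes. In the fit of protein-coding genes alone such a p was found for 3620 of 11824, and the 70 were not counted there. In TPC-1 26 of the 70 were higher and 44 lower (median -0.07), and in B-CPAP 34 and 36 (median -0.03). Of all tested genes 42.5% and 40.1% were lower, and the medians were 0.03 and 0.09. The actins ACTB (ratios 0.870 and 0.848, TPC-1 first here and below) and ACTG1 (0.867 and 0.796) were lower in both lines, and so was ACTC1, cardiac actin, in B-CPAP, the line that expressed it (29.8 and 23.5 TPM, against 0.072 and 0 TPM in TPC-1). Of the myosin II chains MYL6, an essential light chain, had ratios of 0.885 and 0.848, and MYL12B had 1.37 and 1.29, opposite to MYL9.

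Among the regulators of light chain phosphorylation 2 of 14, the kinase genes ROCK1 and ROCK2, were 2-fold or more higher at 40 °C in B-CPAP on the log2(TPM + 1) scale, and 0 were in TPC-1, where 2.78% and 2.25% of all tested genes were. ROCK2 was at 9.86 and 12.5 TPM in TPC-1, against 5.60 and 13.7 TPM in B-CPAP, with ratios of 1.27 and 2.45. ROCK1, named after its values were seen, had ratios of 1.05 and 2.18. PPP1CB, the catalytic subunit of myosin phosphatase, had ratios of 1.37 and 1.99. All 3 are poorer in GC than the median gene (38.7% for ROCK1, 39.4% for ROCK2 and 37.96% for PPP1CB). The list's medians were 0.01 (TPC-1) and 0.24 (B-CPAP). Of the relatives of calponin and tropomyosin CALD1, caldesmon, had ratios of 1.11 and 1.67 and CNN3 of 1.28 and 1.29.

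Of the 10 tested bundlers and cross-linkers 7 were lower in TPC-1 and 6 lower in B-CPAP (medians -0.10 and -0.25), beside 42.5% and 40.1% of all tested genes. FSCN1, fascin, the bundler of filopodia, was at 381 and 302 TPM in TPC-1, against 278 and 201 TPM in B-CPAP. Its ratios were 0.792 and 0.722, and its GC content was 64.3%. PLS1 (39.3% GC) had ratios of 0.996 and 2.06, the latter from about 44 and 85 reads. The capping protein subunits CAPZA1 (ratios 1.42 and 1.13) and CAPZA2 (1.75 and 1.71) were higher at 40 °C. Of SRF, its cofactors and other targets 9 of 12 were lower in each line (medians -0.07 and -0.17), beside the same 42.5% and 40.1%. They were led by ZYX, zyxin, at 0.762 and 0.725 and TGFB1I1, Hic-5, at 0.779 and 0.752. Median GC content was 54.6% for this list and 55.1% for the bundlers and cross-linkers, against 49.1% for all tested genes. The part of GC content in these counts was not tested. SRF itself was at 54.7 and 51.2 TPM in TPC-1, against 83.7 and 71.6 TPM in B-CPAP.

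**Figure D5:**
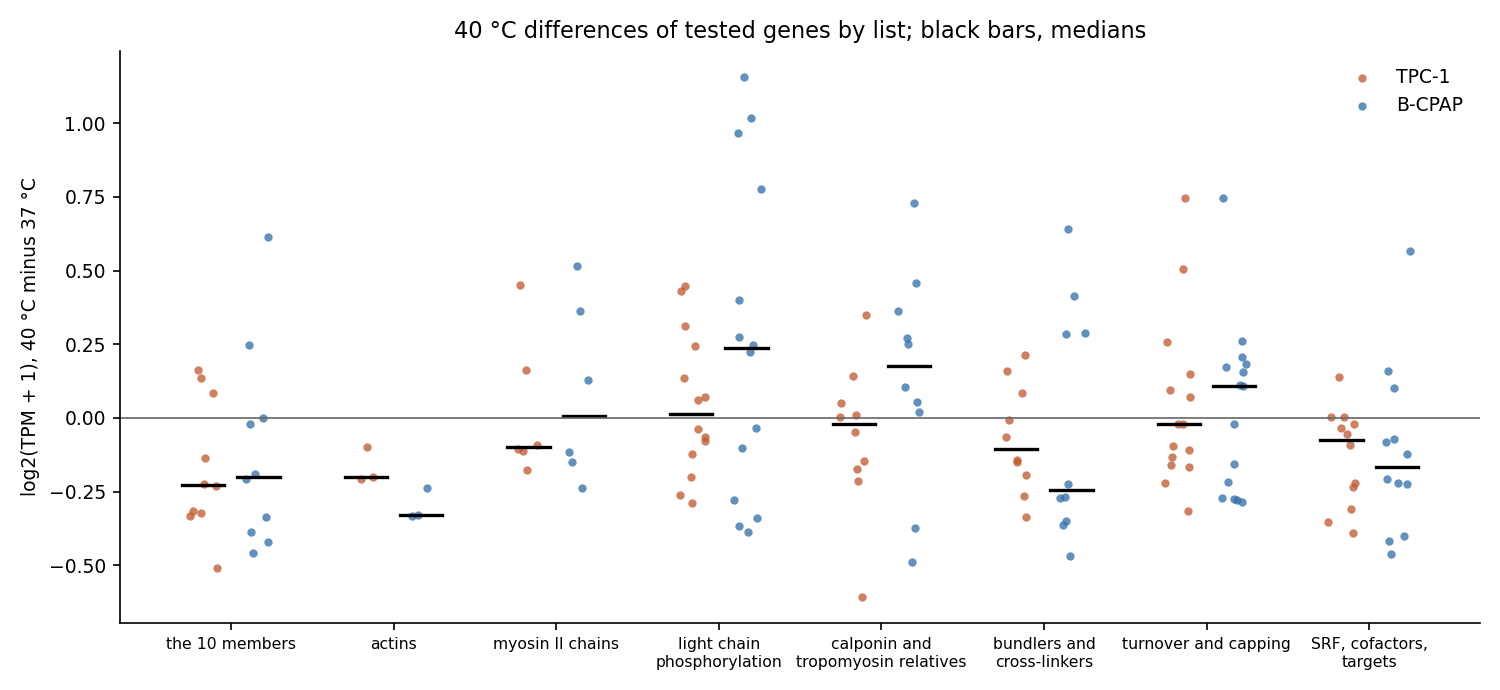
Difference of log2(TPM + 1) between 40 °C and 37 °C (vertical axis) for each tested gene of the 10 and of 7 other lists of actin genes (horizontal axis), in TPC-1 (orange) and B-CPAP (blue), with black bars at the medians. The medians of the 10 genes are -0.23 and -0.20, and the regulators of light chain phosphorylation reach the highest values, in B-CPAP.

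Between the lines 5 of the 70 other tested genes, each at a mean TPM of at least 5, stood 4-fold or more apart at both temperatures on the log2(TPM + 1) scale. Of all tested genes, at a mean of at least 1 TPM, 9.66% stood so far apart, so nothing is read from this count. PLS1, higher in TPC-1, stood 4-fold apart in TPM alone (10.3-fold and 4.99-fold). GSN, the severing and capping protein gelsolin, was high in TPC-1 (160 and 146 TPM, against 18.6 and 15.2 TPM). The related SCIN, scinderin, was high in B-CPAP (12.1 and 14.2 TPM, against 0.028 and 0.015 TPM from about 2 and 1 reads), as was ACTC1. The matricellular SRF and YAP targets CCN1 (179 and 197 TPM against 898 and 824 TPM) and CCN2 (38.5 and 38.6 TPM, against 279.9 and 264 TPM) were also high in B-CPAP.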

How the data were processed

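RNA of TPC-1 and B-CPAP at 37 °C and 40 °C was sequenced in 1 library a group (4 in all). Extraction used an RNeasy Plus kit and library preparation a TruSeq v2 RNA kit, which does not mark strand, per the labels' protocols. The submitters' processing notes name Trimmomatic 0.38, FastQC, MultiQC, GRCh38 and featureCounts 2.0.0. For aligner and annotation release nothing is given in the sources used here. Values are TPM as deposited, in which the authors scaled expression by gene length and library total. Of 58884 IDs, 58611 were in GENCODE 29 (GRCh38), which gave coordinates, exon lengths and GC contents, and 58207 of these had a symbol.

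TPM times exon length fell in steps of whole reads. At a tolerance of 0.02 reads, 90.7 to 92.2% of values up to 20 reads came out whole, as did 65.8 to 67.8% of those between 20 and 200. These estimated reads (not whole for MYL9, LCP1, CNN1 and TPM1, whose lengths may differ in the authors' annotation) gave Clopper-Pearson intervals of TPM ratios at 95%; the interval of a ratio of ratios is a normal approximation. They cover counting error only, and no count test was run.

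The fit was first checked on simulated data, where only the sign and size of differences had to come out right. Genes with a mean of at least 1 TPM (14912) were then fitted as log2(TPM + 1), a scale that understates changes of low genes. The fit used limma 3.58.1 in R 4.3.3 (intensity trend, two-sided, Benjamini-Hochberg, 1 residual degree of freedom). The spread in that fit is how far the temperature difference differs between the lines, not a spread between cultures. The 10 genes, the other lists and the tests were chosen with earlier results of these data known. Named beside the 10 were genes of the 7 lists 4-fold apart between lines at both temperatures, the 2 largest mean 40 °C differences of each list (both at a mean of at least 5 TPM), paralogs of the 10, and the 3 genes nearest in level to MYL9, LCP1 and TAGLN. Alternatives were other pseudocounts (0.1 and 5), filters, scalings, an adjustment for GC content (lowess, span 0.3), other limma settings and fits without 1 library. Added after seeing the data were fits of protein-coding genes alone, with and without the GC adjustment.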

Additional observations from a re-analysis of the deposited data

Results flagged for a closer look

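Among the genes named, 2 stood higher at 40 °C in 1 line and lower in the other, each with counting intervals that excluded 1 in both lines; the difference between the lines was not tested. TPM4, a tropomyosin, had a TPM ratio of 40 °C to 37 °C of 0.967 (interval 0.946 to 0.989) in TPC-1 and of 1.21 (1.19 to 1.23) in B-CPAP. The TPM4 difference in TPC-1 was small, at -0.05 on the log2(TPM + 1) scale. Leaving out mitochondrially encoded genes moved the median of all tested genes in TPC-1 from 0.03 to 0.07, a kind of shift that counting intervals do not cover. CCN1, a matricellular protein gene, had ratios of 1.10 (1.05 to 1.16) in TPC-1 and of 0.918 (0.897 to 0.939) in B-CPAP.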

How the results depend on the processing

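In the fit of 40 °C against 37 °C, limma called 2 genes with a pseudocount of 5, 867 with a mean TPM of at least 5, 49 when libraries were centred on the median and 1350 with protein-coding genes only, against 0 as reported and 0 under the other alternatives. Fits without 1 library also called 0, but they drop the block, so the temperature term takes up line differences, and they say nothing about stability. Of the 10 genes it called 2 and 4 under the filter at 5 and with protein-coding genes only, and 0 under the others. The cause was not tested. Between the lines limma called 9349 genes, and 2911 to 5719 without 1 library and without the block. The median 40 °C difference of the 10 genes stayed negative under every alternative run, from -0.32 to -0.16 in TPC-1 and from -0.38 to -0.15 in B-CPAP, and from -0.30 to -0.10 over the mean of both lines (-0.17 as reported). Without 1 library only the other line gives a difference, with a median of -0.23 or -0.20. Centring moved the median of all genes from 0.03 to -0.07 in TPC-1 and from 0.09 to -0.10 in B-CPAP, and the 10 genes with it. TAGLN, TAGLN2, ACTA2, TPM1 and CSRP1 kept their sign in both lines under all 11 settings compared. PLS3 in TPC-1 turned to -0.05 and TPM2 in B-CPAP to 0.02 once adjusted for GC content, LCP1 in B-CPAP to 0.01 without mitochondrially encoded genes, and CNN1 in TPC-1, on 0 and 1 reads, to -0.01 when centred. Line was the block in the fit as reported; without it limma called 0 genes. The line block sets the 40 °C library of each line against its 37 °C library. With 1 library a group, there was nothing further to pair.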
